A study of Mus musculus with 16 samples.

Results

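The 9 genes described here belong to the integrated stress response that centres on the transcription factor ATF4. They are Atf4, Atf5, Ddit3, Ddit4, Trib3, Chac1, Asns, Nupr1 and Cebpg. They were taken by name from a list of 9 symbols, a list drawn up with earlier results of these data known though its rule uses no measured value, and all 9 were found among the 32989 gene identifiers of the count table. All 9 also passed the filter for testing, an average of 5 counts or more over all libraries, which left 19049 genes.

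In the integrated stress response, kinases that sense amino acid shortage, misfolded protein in the endoplasmic reticulum, double-stranded RNA or lack of haem phosphorylate the initiation factor eIF2. General translation then slows, while short open reading frames upstream of the Atf4 coding sequence let more ATF4 protein be made from the same mRNA, so that the Atf4 transcript is not itself a measure of ATF4 activity. ATF4 pairs with C/EBP family proteins at CARE elements (C/EBP-ATF response elements) and switches on genes for amino acid synthesis, amino acid import, tRNA charging and, when stress persists, growth arrest or death. In the epidermis the balance between protein synthesis and its restraint has been tied to the state of hair follicle stem cells.

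The cells came from hair follicle stem cell (HFSC) organoids, three-dimensional cultures of mouse epidermal cells, grown for 2 weeks from 4 C57BL/6J mice. The organoids were left untreated or received N1-acetylspermidine (N1-AcSpd), an acetylated form of the polyamine spermidine, for 72 h, and were then sorted on α6 integrin and CD34 into progenitors (α6+/CD34−) and HFSCs (α6+/CD34+). Every mouse is represented once in each of the 4 groups (untreated CD34−, N1-AcSpd CD34−, untreated CD34+ and N1-AcSpd CD34+), which makes 16 libraries of 3′ tags counted by unique molecular identifier (UMI). All animals were of the same strain with no transgene or deletion named, and all cells had passed through organoid culture and sorting. The labels call the untreated libraries WT and give no age. The paper's methods give donors of both sexes in the telogen stage and ranges of postnatal age, not assigned to the 4 mice.

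Library totals ran from 15480075 to 29074855 UMIs, and the mitochondrial share from 0.938% to 1.45%. HFSC and differentiation markers differed between the sorted fractions in the direction their names call for. Of 6 HFSC markers, 5 were higher in untreated CD34+ than in untreated CD34− cells, and their summed level was 150 to 192 CPM (UMI counts scaled to library size) against 60.3 to 70.7 CPM, Cd34 being among them and also the gene product sorted on. All 8 differentiated keratinocyte markers were lower in CD34+ cells, with sums of 298 to 324 CPM against 1034 to 1383 CPM in the untreated fractions. Of 5 basal keratinocyte markers, Trp63 was higher and Itga6 and Krt14 were lower in untreated CD34+ cells (log2 fold changes 0.32, -0.34 and -0.14). Itga6 codes for the α6 integrin, on which both fractions were sorted as positive. Summed fibroblast markers reached at most 1.52 CPM and immune markers at most 2.08 CPM in any library, melanocyte markers lay between 9.38 and 12.6 CPM, and of the endothelial markers Kdr and Tek averaged at most 0.149 CPM in any group while Pecam1 averaged 1755 to 1985 CPM, a level whose assignment to Pecam1 transcripts was not tested. In such bulk samples, fewer cells of a type and less RNA per cell cannot be told apart.

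The CARE element is the sequence at which ATF4 pairs with C/EBP family proteins. Its letters were searched for in the RefSeq promoters (GRCm38.p6, from 250 bases before to 50 bases after each transcription start) as TGATGNAA on both strands. It was present in 4 of the 9 genes, Trib3, Chac1, Asns and Nupr1, and in 3.97% of all 32851 promoters, or 4.51% of 27025 genes counted over all their starts. The windows of these 4 genes are shown because they hold the match. They are followed by those of Gars and Iars, a pair of tRNA synthetase genes that also hold it and are called below. Capitals mark the match, read 5′ to 3′ on the strand that holds it.
Trib3, chr2:152344028-152344057, plus strand: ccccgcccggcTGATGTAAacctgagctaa
Chac1, chr2:119351038-119351067, minus strand: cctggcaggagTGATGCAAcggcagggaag
Asns, chr6:7693214-7693243, minus strand: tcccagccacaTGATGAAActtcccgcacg
Nupr1, chr7:126625562-126625591, plus strand: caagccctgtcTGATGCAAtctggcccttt
Gars, chr6:55037960-55037989, minus strand: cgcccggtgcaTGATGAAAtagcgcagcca
Iars, chr13:49682126-49682155, minus strand: gcgtctggaggTGATGCAAtactgacagtg

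The match differed between the genes at its free base, being TGATGCAA in Chac1, Nupr1 and Iars, TGATGAAA in Asns and Gars and TGATGTAA in Trib3. Counted from the RefSeq start, it began 193 bases before in Chac1 (offset -193, with 0 at the start), at -110 in Nupr1, at -23 in Asns and, past the start, at 14 in Trib3. The gene spans printed below come from GENCODE and have other starts. By those spans the Trib3 match lies before its gene, and the Asns and Nupr1 matches lie inside their genes. Of the other lists, CARE letters were found in 5 of 9 ATF4-linked tRNA synthetase genes that had a promoter in the table, in 0 of 5 other cytosolic synthetase genes, in 2 of 9 amino acid synthesis genes, 2 of 6 transporter genes and 3 of 10 other ATF4 targets. The match is a description of letters, and its absence from the windows of Atf4, Atf5, Ddit3, Ddit4 and Cebpg says only that the letters do not lie in those windows.

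The first question was whether the stress genes differ between progenitors and stem cells. Atf4 and Chac1 were lower in CD34+ than in CD34− cells both without and with N1-AcSpd, by -0.20 and -0.41 on the log2 scale in untreated cells and by -0.25 and -0.45 in N1-AcSpd cells. The other 7 genes did not pass the test in either setting. Thus 2 of 9 were called lower in each, where 16.1% of all tested genes were called lower in untreated cells (32.1% in either direction) and 16.8% in N1-AcSpd cells (33.3% in either direction). In this fit the members' share of calls was close to the background. With the mouse as a block, which pairs the libraries of each animal, 4 of 9 were called lower in each setting, beside 3254 and 3396 of the 19049 genes. Tests were made with edgeR's quasi-likelihood method on all 16 libraries, and each adjusted p is Benjamini-Hochberg corrected over the 19049 genes.

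Among the transcription factors, Atf4 itself (chr15:80255184-80257541, plus strand, GRCm38) is the master regulator of the response. In untreated CD34− cells of mice 1 to 4 it stood at 134, 127, 132 and 122 CPM, and in untreated CD34+ cells at 115, 110, 112 and 109 CPM. In N1-AcSpd CD34− cells the values were 137, 123, 127 and 118 CPM, and in N1-AcSpd CD34+ cells 117, 101, 103 and 103 CPM. Every CD34+ library lay below every CD34− library of the same treatment, so the groups did not overlap. The log2 fold change was -0.20 (SE 0.054, edgeR adjusted p = 0.00955) without and -0.25 (SE 0.054, edgeR adjusted p = 0.00224) with N1-AcSpd, lower in 4 of 4 mice each time. The untreated call was lost when all libraries of mouse 2 or of mouse 3 were left out (edgeR adjusted p = 0.0583 and 0.0705), and held in the other 18 of 20 such runs.

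Atf5 (chr7:44812256-44816658, minus strand) codes for a factor related to ATF4 that is controlled by upstream reading frames in the same way. Its levels in mice 1 to 4 were 23.4, 22.9, 21.2 and 18.9 CPM in untreated CD34− cells and 18.8, 19.4, 17.1 and 14.6 CPM in untreated CD34+ cells. With N1-AcSpd they were 20.9, 14.7, 18.5 and 14.1 CPM in CD34− cells and 17.97, 12.2, 12.9 and 11.03 CPM in CD34+ cells. The CD34+ library was the lower of the 2 in every mouse, but the ranges overlapped. The difference was -0.31 (SE 0.16, edgeR adjusted p = 0.167) without and -0.33 (SE 0.16, edgeR adjusted p = 0.130) with N1-AcSpd. With the mouse as a block in the fit the adjusted p was 0.0292 and 0.0182, so the call depended on whether libraries of 1 mouse were paired. Atf5 overlaps Il4i1 and Nup62 on the opposite strand, and whether the tag counting used strand is not given in the sources used here. Without strand, tags of both neighbours could be part of the Atf5 count. The counts were not equal in any library, which does not show whether tags were shared in part.

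Ddit3 (chr10:127290774-127296288, plus strand) codes for CHOP, a C/EBP family factor induced by ATF4 that favours cell death under lasting stress. It stood at 22.8, 20.9, 21.9 and 21.9 CPM in untreated CD34− cells and at 22.3, 21.6, 22.8 and 22.0 CPM in untreated CD34+ cells, ranges that overlap almost completely. The cell type difference was 0.02 (SE 0.13, edgeR adjusted p = 0.950), with an interval of ± 2 SE from -0.25 to 0.28. With N1-AcSpd the values were 23.2, 15.8, 19.6 and 17.1 CPM in CD34− and 20.9, 12.5, 16.9 and 17.8 CPM in CD34+ cells, a difference of -0.15 (SE 0.13, edgeR adjusted p = 0.438). Mars, a tRNA synthetase gene, overlaps Ddit3 on the opposite strand, so that its tags could likewise be part of the Ddit3 count.

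Cebpg (chr7:35046422-35056573, minus strand) codes for C/EBPγ, a dimerization partner of ATF4. It was measured at 40.0, 35.1, 36.6 and 33.0 CPM in untreated CD34− and at 40.5, 39.9, 37.6 and 36.3 CPM in untreated CD34+ cells. The CD34+ library was the higher in 4 of 4 mice, with overlapping ranges and a difference of 0.09 (SE 0.089, edgeR adjusted p = 0.498). With N1-AcSpd the levels were 40.3, 32.2, 32.3 and 31.4 CPM and 40.2, 32.8, 36.1 and 33.0 CPM, and the difference was 0.06 (SE 0.088, edgeR adjusted p = 0.676).

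Of the effectors, Chac1 (chr2:119351229-119354381, plus strand) codes for an enzyme that degrades glutathione. It was counted at 19.6, 16.1, 19.3 and 16.6 CPM in untreated CD34− and at 14.0, 13.1, 14.6 and 12.3 CPM in untreated CD34+ cells. With N1-AcSpd it was at 18.4, 13.4, 23.5 and 16.9 CPM in CD34− and at 13.6, 10.6, 15.03 and 13.6 CPM in CD34+ cells. The untreated fractions did not overlap, the N1-AcSpd fractions did, and the CD34+ library was the lower in every mouse of both. The log2 fold change was -0.41 (SE 0.15, edgeR adjusted p = 0.0467) without and -0.45 (SE 0.15, edgeR adjusted p = 0.0282) with N1-AcSpd. Both calls were narrow. The untreated call was lost in 14 of 20 runs that left out a library or a mouse, with edgeR adjusted p up to 0.200. These were the runs without CD34− mouse 1, 3 or 4 or any of the 4 CD34+ libraries of the untreated cells, without N1-AcSpd CD34− mouse 1 or 4 or N1-AcSpd CD34+ mouse 1 or 4, and without mouse 1, 3 or 4 as a whole. The N1-AcSpd call was lost in 8 of 20, with edgeR adjusted p up to 0.121, namely without N1-AcSpd CD34− mouse 1 or 3, N1-AcSpd CD34+ mouse 1, 2 or 4, or mouse 1, 3 or 4 as a whole. The untreated call was also lost without the filter on low counts (edgeR adjusted p = 0.0685), and the N1-AcSpd call when the N1-AcSpd groups were fitted alone (edgeR adjusted p = 0.109). With the mouse as a block both calls held (edgeR adjusted p = 0.00521 and 0.00286). The untreated call also held when the untreated groups were fitted alone (edgeR adjusted p = 0.0110).

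Asns (chr6:7675169-7693254, minus strand) codes for asparagine synthetase, a textbook ATF4 target. Its values were 165, 152, 160 and 149 CPM in untreated CD34− cells and 128, 137, 138 and 132 CPM in untreated CD34+ cells. These groups did not overlap, yet the difference of -0.23 (SE 0.11) missed the threshold (edgeR adjusted p = 0.154). With N1-AcSpd, Asns stood at 175, 129, 170 and 142 CPM in CD34− and at 152, 109, 150 and 114 CPM in CD34+ cells, lower in 4 of 4 mice with overlapping ranges (log2 fold change -0.23, SE 0.11, edgeR adjusted p = 0.150). When the fit used the untreated groups alone, Asns was called with an edgeR adjusted p of 0.00670.

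Nupr1 (chr7:126623249-126630861, minus strand) codes for a small stress-induced chromatin protein. It was at 84.0, 76.4, 79.4 and 75.3 CPM in untreated CD34− and at 66.1, 66.6, 66.6 and 67.9 CPM in untreated CD34+ cells, with no overlap. The N1-AcSpd values were 94.8, 59.3, 75.4 and 64.1 CPM in CD34− and 63.7, 51.0, 64.2 and 66.6 CPM in CD34+ cells, with overlap. The differences were -0.24 (SE 0.12, edgeR adjusted p = 0.157) and -0.26 (SE 0.12, edgeR adjusted p = 0.119). Fitted on the untreated groups alone, the first was called (edgeR adjusted p = 0.00496), as was that of Trib3 (edgeR adjusted p = 0.0343).

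Trib3 (chr2:152337422-152344032, minus strand) codes for a pseudokinase that feeds back on ATF4 and CHOP. Untreated CD34− cells had 35.6, 30.7, 35.2 and 31.5 CPM and untreated CD34+ cells 29.5, 24.1, 28.9 and 27.3 CPM, without overlap. N1-AcSpd cells had 37.0, 22.2, 34.3 and 28.5 CPM in the CD34− and 30.5, 16.7, 26.7 and 24.5 CPM in the CD34+ fraction, with overlap and with the CD34+ library lower in every mouse. The differences were -0.28 (SE 0.17, edgeR adjusted p = 0.254) and -0.31 (SE 0.17, edgeR adjusted p = 0.198). With the mouse as a block both were called, with edgeR adjusted p of 0.0426 and 0.0257.

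Ddit4 (chr10:59949669-59951834, minus strand) codes for REDD1, an inhibitor of mTORC1 signalling that glucocorticoids and hypoxia also induce. It was at 16.0, 13.3, 13.5 and 12.2 CPM in untreated CD34− and at 16.0, 14.3, 14.7 and 14.8 CPM in untreated CD34+ cells. With N1-AcSpd it was at 14.8, 9.72, 12.5 and 11.5 CPM and at 14.5, 13.9, 12.6 and 16.7 CPM. Higher values thus lay with the CD34+ cells in 3 of 4 mice of each treatment, with overlapping ranges. The differences were 0.12 (SE 0.12, edgeR adjusted p = 0.522) and 0.25 (SE 0.12, edgeR adjusted p = 0.135). Ddit4 and Cebpg were the only members with positive cell type differences in both treatments.

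**Figure D1:**
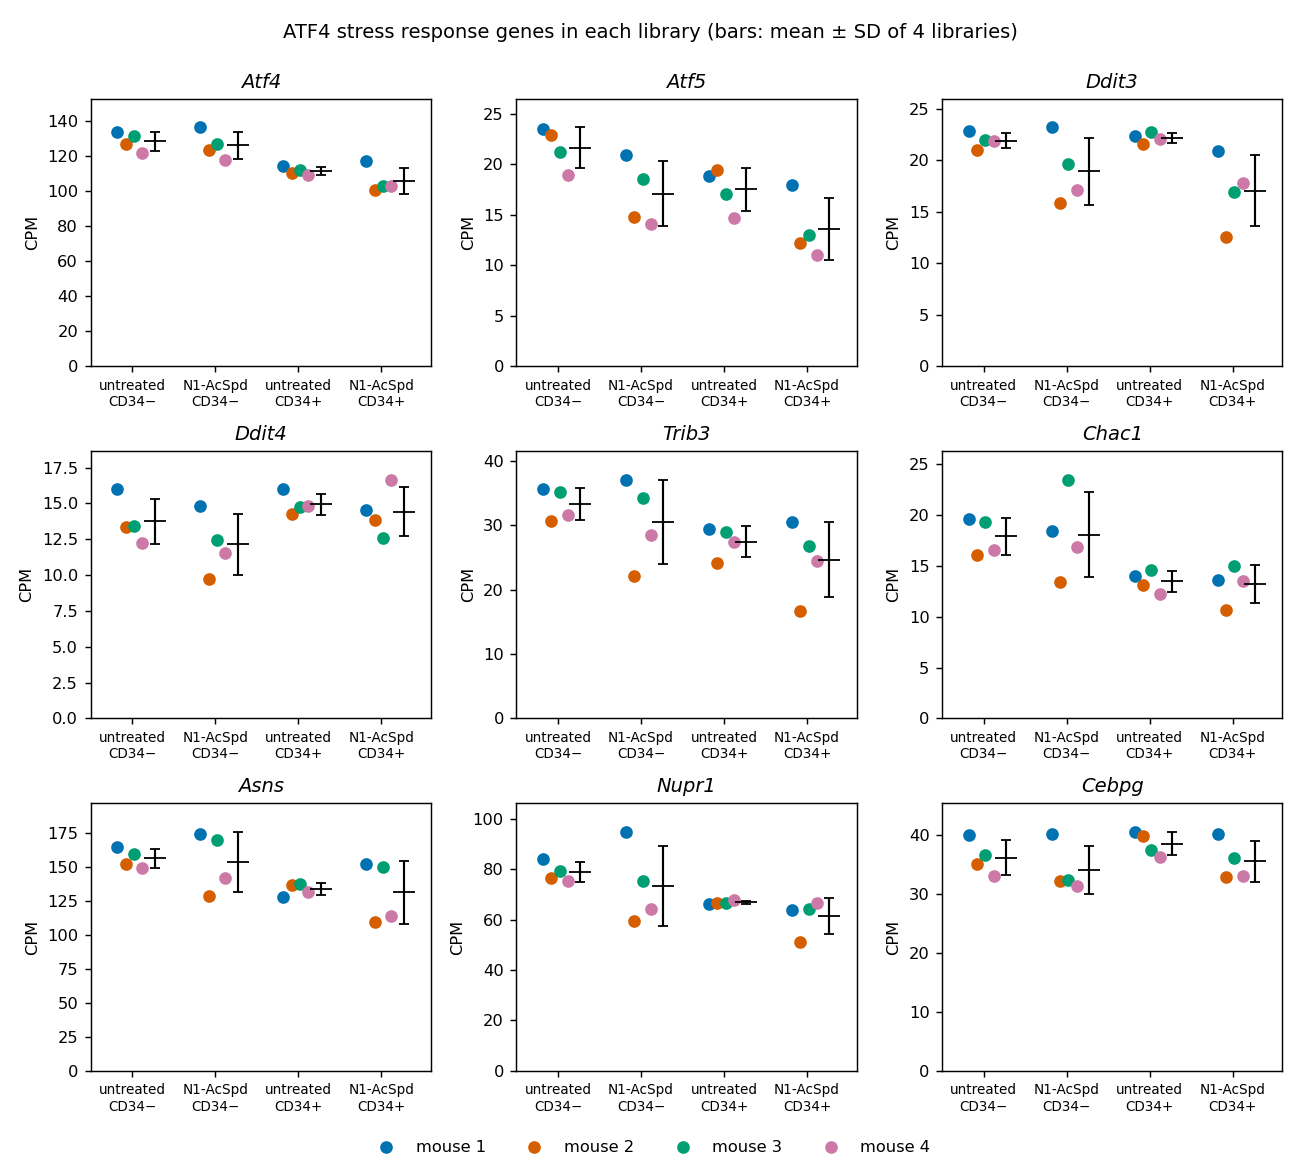
Level of each of the 9 genes in CPM (vertical axes, starting at 0) in the 16 libraries, by group, with each mouse in its own colour and black bars for the mean ± SD of 4 libraries. Atf4 and Chac1 lie lower in CD34+ cells, and the points spread further apart in the N1-AcSpd groups than in the untreated groups for every gene.

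Over the 9 genes the median cell type difference was -0.23 in untreated and -0.25 in N1-AcSpd cells, where the median of all tested genes was 0.02 and -0.01. In untreated cells 6 of 9 were lower in CD34+ cells of all 4 mice, and in N1-AcSpd cells 5 of 9, against 24.0% and 25.9% of all tested genes. The scaling bears on these values. CPM here were scaled by TMM, and with library totals alone the median of all genes moved to 0.14 and 0.11, and calls to 4861 higher and 1762 lower in untreated cells (3059 and 3064 with TMM) and to 4792 higher and 1904 lower in N1-AcSpd cells (3147 and 3199 with TMM). On that scale Atf4 stood at -0.09 in untreated cells (edgeR adjusted p = 0.191) and Chac1 at -0.29 (edgeR adjusted p = 0.132), so neither was called, while relative to the shifted median both remained below it. In N1-AcSpd cells Atf4 was still called with library totals, Chac1 was not (edgeR adjusted p = 0.0865) and Ddit4 was called higher (0.36, edgeR adjusted p = 0.0279). The differentiated keratinocyte markers, 8 of 8 lower in CD34+ cells with a median of -1.54 in untreated and -1.69 in N1-AcSpd cells, moved with the same contrast, and their part in the stress gene differences was not tested. Ordered by mean, Atf4, Asns, Nupr1 and Trib3 ran from untreated CD34− through N1-AcSpd CD34− and untreated CD34+ to N1-AcSpd CD34+. Neighbours in the order of group means overlapped in their ranges for every gene, with 2 exceptions, Atf4 between N1-AcSpd CD34− and untreated CD34+ cells and Chac1 between untreated CD34− and untreated CD34+ cells.

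**Figure D2:**
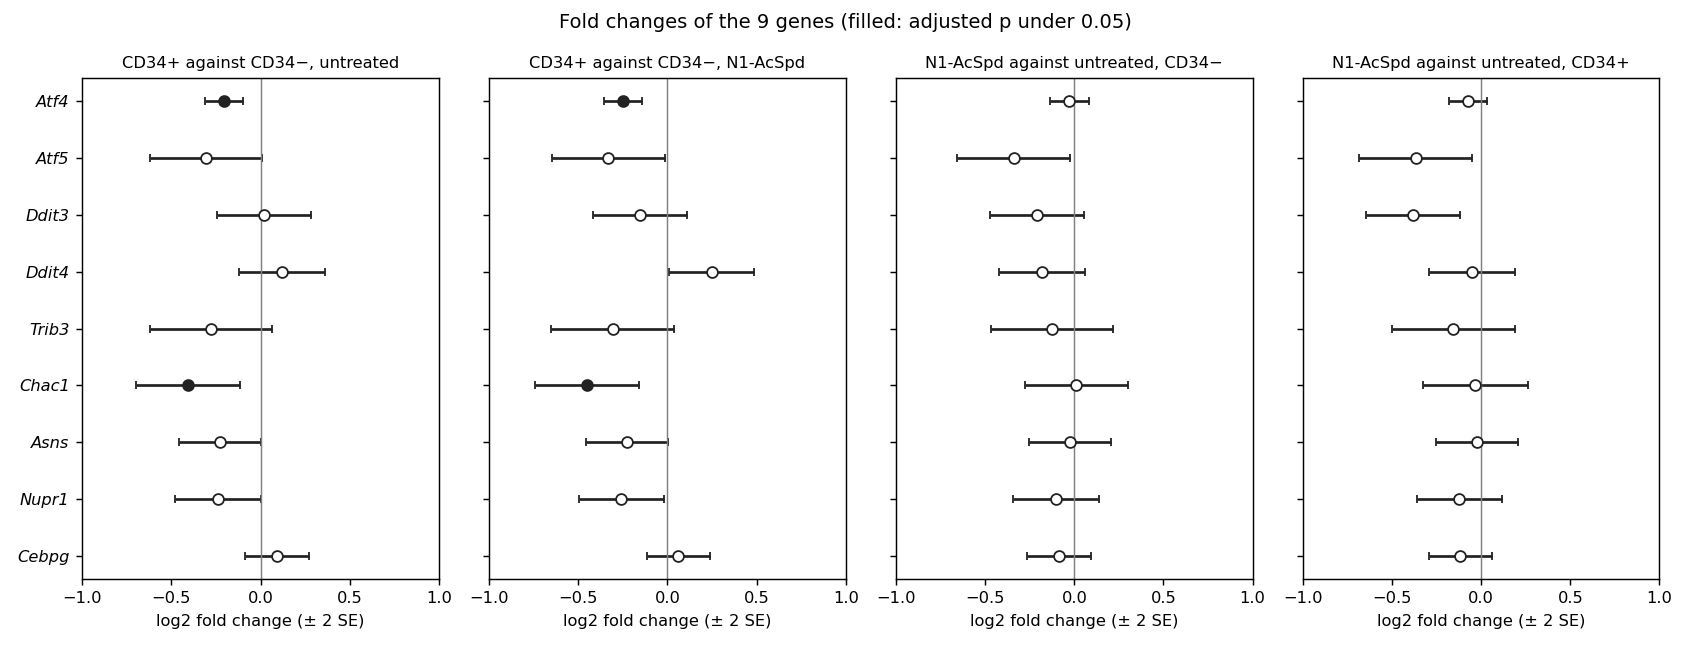
Log2 fold change (horizontal axes, bars ± 2 SE) of each gene in the cell type comparisons (left pair) and the treatment comparisons (right pair), from the edgeR fit over 16 libraries. Filled points passed an adjusted p of 0.05, which only Atf4 and Chac1 did, both in the cell type comparisons.

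The second question was whether N1-AcSpd, given to test its effect on stem cell fate, moved the stress genes. None of the 9 passed the edgeR test in CD34− cells, where 117 genes or 0.614% did, and none in CD34+ cells, where 62 genes or 0.325% did. With the mouse as a block these counts were 349 and 152, again with 0 of the 9, and DESeq2 likewise called 0 of the 9 in each. At an unadjusted p under 0.05, edgeR marked 1 of the 9 in CD34− cells (Atf5) and 2 of the 9 in CD34+ cells (Atf5 and Ddit3), where 13.6% and 13.2% of all tested genes were marked. The fitted log2 fold change was below 0 for 8 of 9 in CD34− cells (median -0.10) and 9 of 9 in CD34+ cells (median -0.12), against 49.8% and 53.1% of all tested genes, whose medians were 0.00 and -0.01. In all 4 mice, 2 of 9 were lower in CD34− and 4 of 9 in CD34+ cells, against 12.1% and 11.6% of all tested genes. The 9 genes varied together, as described below, so their signs are not independent. The treated and untreated ranges overlapped for 8 of the 9 genes in CD34+ cells and for all 9 in CD34− cells.

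The exception was Ddit3 in CD34+ cells, where the 4 treated libraries (12.5 to 20.9 CPM) all lay below the 4 untreated ones (21.6 to 22.8 CPM). The log2 fold change was -0.38 (SE 0.13, edgeR adjusted p = 0.246). In CD34− cells it was -0.21 (SE 0.13, edgeR adjusted p = 0.530), lower in 3 of 4 mice. Atf5 was lower with N1-AcSpd in 4 of 4 mice of both fractions, by -0.34 (SE 0.16, edgeR adjusted p = 0.365) in CD34− and by -0.37 (SE 0.16, edgeR adjusted p = 0.345) in CD34+ cells.

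When the treatment effect was averaged over both fractions, 925 genes or 4.86% passed (2.7% higher and 2.16% lower), and 1551 with the mouse as a block. None of the 9 passed in the edgeR fit without the block, and 2 had an unadjusted p under 0.05, as 20.7% of all tested genes did. These were Ddit3 at -0.30 (SE 0.093, edgeR adjusted p = 0.0846) and Atf5 at -0.35 (SE 0.11, edgeR adjusted p = 0.0847). Both were lower in 4 of 4 mice, and both are the genes whose counts could hold tags of an opposite-strand neighbour. Both were called with the mouse as a block, Atf5 at -0.37 with an edgeR adjusted p of 0.0112 and Ddit3 at -0.31 with 0.0244, and by DESeq2, with adjusted p of 0.0417 and 0.0403. Leaving out the N1-AcSpd CD34+ library of mouse 1 also brought both under the threshold (edgeR adjusted p = 0.0295 and 0.0464), as did leaving out the N1-AcSpd CD34− library of mouse 1 for Ddit3 (edgeR adjusted p = 0.0379). The averaged log2 fold changes of the other 7 ran from -0.14 for Trib3 to -0.01 for Chac1, the latter with an interval of ± 2 SE from -0.22 to 0.20. For Asns the interval ran from -0.19 to 0.14 and for Atf4 from -0.13 to 0.02.

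Whether the cell type difference changed with N1-AcSpd was tested as an interaction. None of the 9 passed, none had an unadjusted p under 0.05, and over all genes edgeR called 0 of 19049 (0%) with 799 (4.19%) at an unadjusted p under 0.05, while DESeq2 called 71 genes and 0 of the 9. The interaction terms of the members ran from -0.17 for Ddit3 (± 2 SE from -0.54 to 0.20) to 0.13 for Ddit4 (± 2 SE from -0.21 to 0.47), intervals wide enough to hold sizeable differences.

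The mice lay further from each other after N1-AcSpd. All 9 genes had a larger SD of log2 CPM over the 4 mice in N1-AcSpd than in untreated cells, in the CD34− and in the CD34+ fraction alike, whereas 43.8% and 52.5% of all tested genes did. The members' median SD was 0.11 untreated against 0.25 with N1-AcSpd in CD34− cells and 0.07 against 0.21 in CD34+ cells. Over all tested genes the median SD was 0.16 and 0.15 in CD34− cells and 0.17 and 0.17 in CD34+ cells. The difference in spread was not tested, since 4 mice give each SD.

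The deviations were shared by the 2 fractions of a treated culture. Summed over the 9 genes, mice 1 to 4 had 561, 420, 513 and 444 CPM in N1-AcSpd CD34− cells and 471, 360, 438 and 400 CPM in N1-AcSpd CD34+ cells. In untreated CD34− cells the sums were 540, 495, 519 and 481 CPM, and in untreated CD34+ cells 450, 446, 453 and 436 CPM. Mouse 1 was highest and mouse 2 lowest in both treated fractions, and mouse 4 lowest in both untreated fractions. Since each mouse gave 1 treated culture, the mouse and the culture cannot be told apart in the treated values. The members' mean log2 deviation from the group mean was above 0 in mice 1 and 3 and below 0 in mice 2 and 4, in all 4 groups. For untreated mice 1 to 4 it was 0.11, -0.05, 0.03 and -0.10 in CD34− cells. In untreated CD34+ cells it was 0.05, -0.01, 0.02 and -0.06.

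Set against the mean of its own group, the N1-AcSpd library of mouse 1 lay above it for 9 of 9 genes in both fractions, by a mean of 0.25 (18.7%) in CD34− and 0.20 (14.7%) in CD34+ cells on the log2 scale. The N1-AcSpd library of mouse 2 lay below it for 9 of 9 genes in both fractions, by a mean of -0.24 and -0.23. It was the lowest of 4 for 6 genes in CD34− and 7 genes in CD34+ cells. Trib3 showed this most plainly, at 37.0 CPM in mouse 1 and 22.2 CPM in mouse 2 in CD34− cells, and at 30.5 and 16.7 CPM in CD34+ cells. The untreated library of mouse 1 also lay above its group mean for 9 of 9 genes in CD34− and 7 of 9 in CD34+ cells. That of mouse 2 lay below for 8 and 6 genes, and that of mouse 4 for 9 and 8 genes.

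These libraries did not share a depth. The N1-AcSpd library of mouse 2 had the most UMIs of all in CD34− cells (29074855) and 16715068 in CD34+ cells, and that of mouse 1 had 25202264 and 26233887. The median deviation of all tested genes was 0.00 in both N1-AcSpd libraries of mouse 2 and 0.00 and 0.01 in those of mouse 1. The summed differentiated keratinocyte markers of mice 1 to 4 were 1581, 1250, 1407 and 1258 CPM in N1-AcSpd CD34− and 390, 375, 403 and 312 CPM in N1-AcSpd CD34+ cells, so mouse 1 lay above mouse 2 for these markers also. Their part in the spread of the stress genes was not tested.

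**Figure D3:**
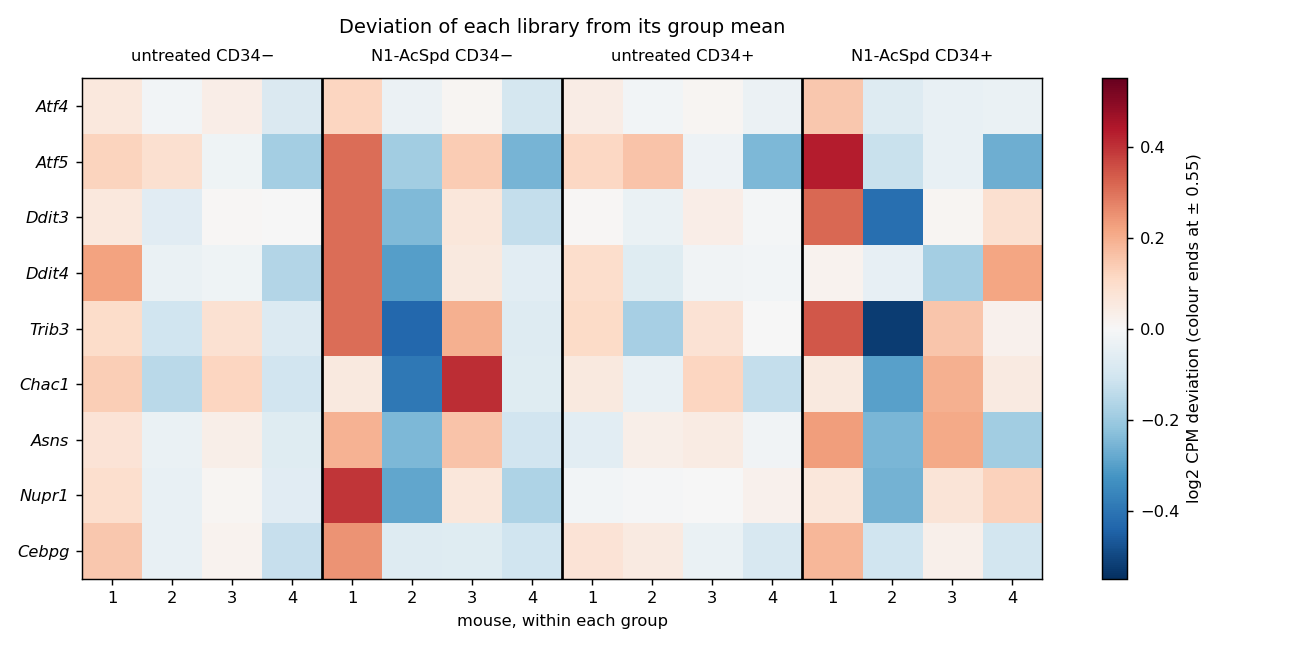
Deviation of log2 CPM from the mean of the group (colour, red above and blue below) for each gene (rows) in each library (columns, mice 1 to 4 in each of the 4 groups). The N1-AcSpd columns of mouse 1 are red and those of mouse 2 blue in all 9 rows of both fractions, while the untreated columns are paler.

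The members therefore varied together. Over the 16 libraries, with group means removed, all 36 pairs of members had a Pearson r above 0, with a median of 0.66 and a range from 0.29 for Ddit4 with Asns to 0.93 for Ddit3 with Trib3 (median Spearman rho 0.66). The 16 points are not independent, since they come from 4 mice and the 2 fractions of a mouse and treatment share their culture, so no p is given. The median r was 0.61 over the 8 untreated and 0.70 over the 8 N1-AcSpd libraries. Without mouse 1 it was 0.47, without mouse 2 0.63, and without the N1-AcSpd libraries of both mice 0.49, with 35 of 36 pairs above 0 in each of these 3 cases.

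The genes most like each member were sought among 12444 genes whose counts averaged 50 or more. For Atf4 they were Sars, seryl-tRNA synthetase (r = 0.91), and Fkbp2 (r = 0.90), and for Cebpg they were Atf4 itself (r = 0.89) and Sars (r = 0.88). For Ddit3 they were Trib3 (r = 0.93) and Aldh18a1, an enzyme of proline synthesis (r = 0.93). For Trib3 they were Shmt2, mitochondrial serine hydroxymethyltransferase (r = 0.95), and Eif4ebp1, a translation repressor (r = 0.93). For Asns they were Psph, the last enzyme of serine synthesis (r = 0.96), and Phf10 (r = 0.95). The nearest genes thus included several on lists of ATF4 targets for these 5 members.

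For the other 4 members none of the nearest genes was on such a list. They were Gm48045 (r = 0.93) and Eif3c (r = 0.91) for Atf5, Smap1 (r = 0.90) and Ndrg1 (r = 0.87) for Ddit4, Sft2d2 (r = 0.94) and Spint2 (r = 0.90) for Chac1, and Hk2 (r = 0.90) and Cisd2 (r = 0.88) for Nupr1. Psph ran like Asns in the N1-AcSpd cells of mice 1 to 4, with 60.0, 43.9, 60.5 and 45.6 CPM in CD34− and 57.1, 37.0, 52.6 and 42.1 CPM in CD34+ cells. In the untreated cells it held between 47.8 and 61.7 CPM.

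The same measure was taken for whole lists, as r between each gene and the mean deviation of the 9 members. For 11 amino acid and one-carbon synthesis genes the median r was 0.84, and 10 of 11 exceeded 0.5, where 6.26% of all other tested genes did. For 9 amino acid transporters the median was 0.53 with 6 over 0.5, and for 11 other ATF4 stress targets (of 12 listed) it was 0.42 with 5 over 0.5, Stc2, a secreted glycoprotein, having the highest r of all list genes at 0.96. For 13 genes (synthetases and the tRNA export receptor) induced through ATF4 the median was 0.56 with 8 over 0.5, and for the 8 other cytosolic synthetases it was -0.24 with 1 over 0.5. The latter median was 0.16 without mouse 1 and -0.05 in the untreated libraries, so its sign rests on that mouse. Sars (0.90), Mars (0.90) and Eprs (0.80) led the former, Mars being the gene that overlaps Ddit3.

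The medians of other stress pathway lists lay nearer 0, though single genes in them ran strongly both ways. The median r was 0.20 for 25 genes (of 26 listed) of the ATF6 and XBP1 arms of the unfolded protein response, with 6 over 0.5, among them Herpud1 (0.78). It was -0.15 for 16 genes of the eIF2 kinases, phosphatase subunits and eIF2B, with 3 over 0.5 and a range from -0.74 to 0.75. For 8 mitochondrial chaperones and proteases it was -0.05, with 2 over 0.5 and a range from -0.73 to 0.73. For 8 glucocorticoid response genes it was -0.18, with 0 over 0.5 and a range from -0.77 to 0.24. The median was -0.02 for 9 dissociation and immediate early genes, with 0 over 0.5. Of all other tested genes, 6.26% exceeded 0.5. Among cell type markers the median r was 0.49 for the 8 differentiated keratinocyte markers, with 4 over 0.5 and Krt1 (0.76) the highest. It was -0.38 for the 5 basal keratinocyte markers and 0.03 for the 6 HFSC markers. Differentiation markers thus moved with the members from library to library as well, and their part was not tested.

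The list medians differed between the treatments, which was not tested. In the 8 N1-AcSpd libraries alone the median r was 0.86 for amino acid and one-carbon synthesis, 0.75 for ATF4-linked synthetases, 0.52 for the ATF6 and XBP1 arms and 0.61 for differentiated keratinocyte markers. In the 8 untreated libraries these were 0.48, 0.03, 0.02 and -0.10. Without the N1-AcSpd libraries of mice 1 and 2 the amino acid and one-carbon list kept a median of 0.69, with 9 of 11 over 0.5, against 8.18% of all other genes. The ATF4-linked synthetases then had 0.41 with 5 of 13 over 0.5, the other ATF4 targets 0.32 with 4 of 11, the ATF6 and XBP1 list 0.13 and the differentiation markers 0.31. Without mouse 2 as a whole, 3 of 9 transporters exceeded 0.5, and the median was 0.35 for the ATF4-linked synthetases and 0.01 for the ATF6 and XBP1 arms.

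**Figure D4:**
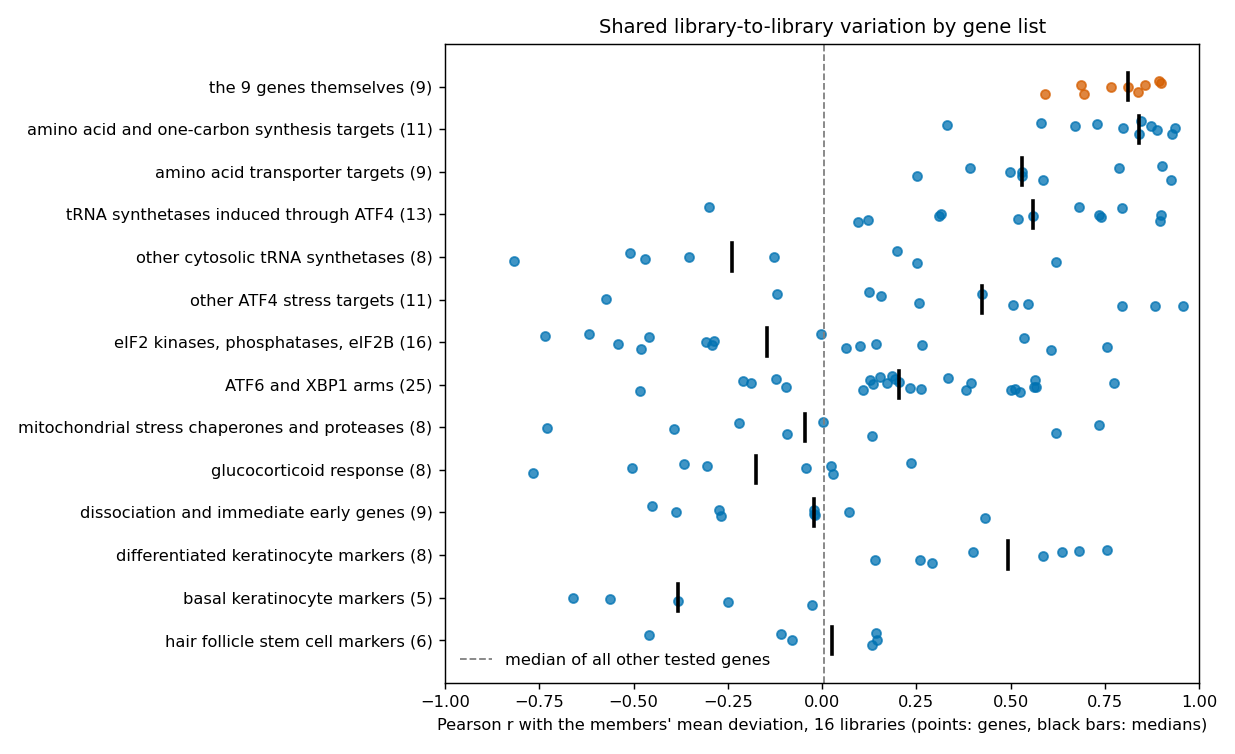
Pearson r (horizontal axis) between each gene's deviations and the mean deviation of the 9 members over 16 libraries, by list with the number of genes in parentheses, black bars marking medians and the dashed line the median of all other tested genes. The 9 genes are part of the mean they are compared with, and the amino acid and one-carbon synthesis list reaches a median of 0.84 while the other cytosolic synthetases lie at -0.24.

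Genes of the wider pathway were then compared between the fractions, beside the 16.1% of all genes called lower and 16.1% called higher in untreated cells and the 16.8% and 16.5% in N1-AcSpd cells. Of the amino acid and one-carbon synthesis genes, 2 of 11 were lower in untreated CD34+ cells, Pck2, mitochondrial phosphoenolpyruvate carboxykinase (103 ± 8.80 CPM against 159 ± 10.5 CPM, SD, n = 4 each, log2 fold change -0.62, edgeR adjusted p = 3.61e-05), and Gpt2, an alanine transaminase (-0.39, edgeR adjusted p = 0.00756). With N1-AcSpd both were lower again and Shmt2 was higher (0.25, edgeR adjusted p = 0.0384). Of 9 transporters, Slc3a2, the heavy chain shared by several amino acid carriers, was higher in CD34+ cells (277 ± 17.5 CPM against 208 ± 9.94 CPM in untreated cells, SD, n = 4 each, 0.41, edgeR adjusted p = 0.00171), and Slc7a1, a cationic amino acid carrier, was lower (-0.43, edgeR adjusted p = 0.0104). Both held with N1-AcSpd, at 0.39 and -0.36. The share called lower in these lists was thus near that of all genes.

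Among the tRNA synthetases, those linked to ATF4 and those not both leaned towards lower levels in CD34+ cells. Of the 13 linked to ATF4, 3 were lower in untreated cells, Iars (-0.35, edgeR adjusted p = 0.000190), Gars (-0.36, edgeR adjusted p = 0.00269) and Cars (-0.21, edgeR adjusted p = 0.0177), and 7 in N1-AcSpd cells, where the shares over all genes were 16.1% and 16.8%. Of the 8 others, 4 were lower in untreated and 6 in N1-AcSpd cells, with Qars at 67.4 ± 2.81 CPM against 113 ± 7.74 CPM (SD, n = 4 each) in untreated cells (-0.74, edgeR adjusted p = 5.04e-06), followed by Rars (-0.34, edgeR adjusted p = 0.000560) and Farsa (-0.21, edgeR adjusted p = 0.00161), and Vars was higher with N1-AcSpd (0.21, edgeR adjusted p = 0.0412). The medians were -0.15 and -0.23 for the ATF4-linked and -0.18 and -0.18 for the other synthetases, below 0 for both lists. Of 11 other ATF4 targets, Cebpb was higher in untreated CD34+ cells (0.14, edgeR adjusted p = 0.0496), and Tnfrsf10b (-0.42, edgeR adjusted p = 0.00652) and Atf3 (-0.78, edgeR adjusted p = 0.0228) were lower in N1-AcSpd CD34+ cells.

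The sister arms of the unfolded protein response also differed between the fractions. Of 25 genes of the ATF6 and XBP1 arms, 16 were lower and 0 higher in untreated CD34+ cells (median -0.27), and 13 lower and 1 higher, Atf6b, in N1-AcSpd cells (median -0.26), beside the 16.1% and 16.8% of all genes called lower. Edem1 (-0.39, edgeR adjusted p = 4.91e-05), Dnajc3 (-0.39, edgeR adjusted p = 7.91e-05) and Manf (-0.54, edgeR adjusted p = 0.000226) led in untreated cells, and Hspa5, the endoplasmic reticulum chaperone BiP, stood at 128 ± 7.42 CPM against 188 ± 23.1 CPM (SD, n = 4 each) in N1-AcSpd cells (-0.55, edgeR adjusted p = 0.000401). A difference between these shares and those of the ATF4 genes was not tested.

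Upstream, 6 of 16 genes of the eIF2 kinases, phosphatase subunits and eIF2B were lower and 2 higher in CD34+ cells with either treatment, where about as many higher as lower calls were made over all genes (16.1% each in untreated cells, 16.5% and 16.8% in N1-AcSpd cells). Eif2s1, the subunit that the kinases phosphorylate, was lower (-0.22, edgeR adjusted p = 0.00147 in untreated cells), as were Eif2s2 (-0.33, edgeR adjusted p = 0.000985) and Eif2b3 (-0.34, edgeR adjusted p = 0.000844). Ppp1cc, a catalytic subunit of the phosphatase that opposes the kinases, was higher in both treatments (0.13, edgeR adjusted p = 0.0116, and 0.14, edgeR adjusted p = 0.00629). Eif2ak2, the kinase PKR, was higher in untreated (0.66, edgeR adjusted p = 0.0198) and Eif2ak4, the amino acid sensor GCN2, in N1-AcSpd CD34+ cells (0.37, edgeR adjusted p = 0.0393). Of 8 mitochondrial chaperones and proteases, 3 and 4 were lower, led by Hspe1 (-0.23, edgeR adjusted p = 0.000226 in untreated cells) and Hspd1 (-0.39, edgeR adjusted p = 0.000485), with Dnaja3 the last in untreated cells (-0.16, edgeR adjusted p = 0.0304).

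A list of 8 glucocorticoid response genes, fixed because Ddit4 belongs to that response too, went the other way. In CD34+ cells 6 were higher untreated and 5 with N1-AcSpd, and 0 were lower. Over all genes 16.1% and 16.5% were called higher. Sgk1 stood at 276 ± 41.7 CPM against 79.0 ± 12.9 CPM (SD, n = 4 each) in untreated cells (1.80, edgeR adjusted p = 2.76e-06), and Fkbp5 (1.01, edgeR adjusted p = 5.68e-07) and Tsc22d3 (1.02, edgeR adjusted p = 7.52e-05) were also higher, as was Zbtb16 in N1-AcSpd cells (1.26, edgeR adjusted p = 0.00104). Of 9 dissociation and immediate early genes, 2 were higher in untreated CD34+ cells, beside the 16.1% of all genes. These were Egr1 (0.58, edgeR adjusted p = 0.000690) and Dnajb1 (0.33, edgeR adjusted p = 0.00424). Both were higher with N1-AcSpd too (0.81, edgeR adjusted p = 3.65e-05, and 0.35, edgeR adjusted p = 0.00247), and Junb was lower in N1-AcSpd CD34+ cells (-0.29, edgeR adjusted p = 0.00184). The summed level of these 9 genes was 447 to 474 CPM in untreated CD34− and 431 to 485 CPM in untreated CD34+ cells.

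**Figure D5:**
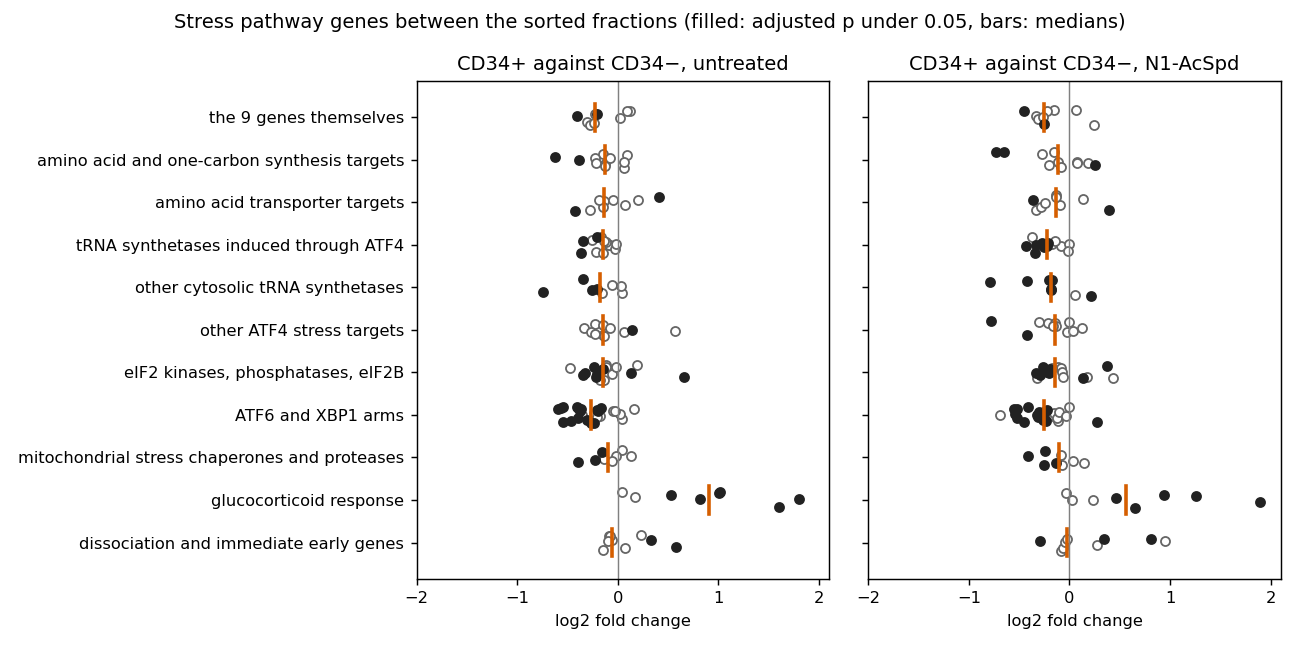
Log2 fold change between CD34+ and CD34− cells (horizontal axes) of each gene of the stress lists, in untreated (left) and N1-AcSpd cells (right), filled where the adjusted p was under 0.05 and with orange bars for list medians. The ATF6 and XBP1 genes have a median of -0.27 on the left, and all 8 glucocorticoid response genes lie to the right of 0 on the left, as do all but 1 on the right.

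In either fraction alone no gene of these stress lists was called with N1-AcSpd, beside 0.614% of all genes in CD34− and 0.325% in CD34+ cells. Averaged over both fractions, 2.7% of all genes were called higher and 2.16% lower. Of 13 ATF4-linked synthetase genes 1 was higher, Aars (0.12, SE 0.030, edgeR adjusted p = 0.0345), and of 8 other synthetases 1, Farsa (0.12, edgeR adjusted p = 0.0306). Of 25 genes of the ATF6 and XBP1 arms 1 was higher, Edem1 (0.21, edgeR adjusted p = 0.00712). Of 16 genes of the eIF2 list 2 were higher, Eif2ak1, the haem-regulated eIF2 kinase (0.17, edgeR adjusted p = 0.0119), and Eif2s1 (0.16, edgeR adjusted p = 0.0126). Of 8 mitochondrial chaperones and proteases 1 was higher, the protease Clpp (0.10, edgeR adjusted p = 0.0365). Dusp1 (1 of 8 glucocorticoid response genes) and Junb and Ier2 (2 of 9 dissociation and immediate early genes) were higher too, at 0.28, 0.18 and 0.13 (edgeR adjusted p = 0.0278, 0.0264 and 0.0359). In the amino acid synthesis, transporter and other ATF4 target lists no gene passed, the smallest p being those of Pycr1 (-0.24, edgeR adjusted p = 0.0917), Slc7a11 (0.31, edgeR adjusted p = 0.132) and Cebpb (0.12, edgeR adjusted p = 0.0693). Each called gene of the stress lists rose in 4 of 4 mice, but the lists as a whole did not move one way. Their median was -0.06 for amino acid and one-carbon synthesis, -0.04 for transporters, -0.04 for ATF4-linked synthetases and -0.09 for the glucocorticoid response. It was 0.09 for other synthetases, 0.05 for other ATF4 targets and 0.08 for the eIF2 list. For the ATF6 and XBP1 arms it was 0.07, for mitochondrial genes 0.03 and for dissociation genes 0.07. The 9 members had a median of -0.11, with 9 of 9 below 0, against 52.0% of all tested genes. In all 4 mice 3 of 9 were lower, against 13.9% of all tested genes. Some differentiated keratinocyte markers also moved with N1-AcSpd. In the averaged comparison 2 of 8 were called higher, Ivl and Sbsn, with a list median of 0.25, beside 2.7% of all genes. In CD34− cells 1 of 8 was called higher, Klk10, where 0.614% of all genes were called in either direction. Of the 6 HFSC markers, Nfatc1 was called lower in CD34− cells (-0.35, edgeR adjusted p = 0.0480) and in the averaged comparison (-0.20, edgeR adjusted p = 0.0365). The part of these markers in the stress gene values was not tested.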

How the data were processed

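Messenger RNA of sorted HFSC-organoid cells was measured in 16 libraries by 3′ sequencing with UMIs. The authors demultiplexed the reads with FLEXBAR, mapped the second end with Kallisto (0.45.0 in the submitters' processing notes) to mm10, assigned tags with BEDTools and counted unique UMIs per gene; the deposited values are these raw counts. The annotation release and strand setting are not given in the sources used here. Empty cells (156050) were read as 0, and 62 identifiers without a symbol held 0.116% of counts. Symbols and positions came from GENCODE on GRCm38, promoters from RefSeq.

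Groups, and the mouse that pairs libraries, came from the labels, so replicates are separate animals. Counts were scaled by TMM and tested with edgeR 4.0.16 (quasi-likelihood, 1 mean per group, all 16 libraries, mean count of at least 5), with Benjamini-Hochberg adjustment and a threshold of 0.05. The study's own tool was DESeq2, which was run (1.42.0) as an alternative, as were other scalings and filters, a mouse block, the compared groups alone, a fold threshold and leaving out libraries or mice. The scripts were tested on simulated counts. Deviations are log2 CPM minus the group mean, and deviations of all genes had a mean r of 0.02 between fractions of a culture, 0.01 between treatments of a mouse and -0.00 between mice. No 2 libraries of the same group agreed within sampling noise (lowest chi-square per degree of freedom 25.4), and pairs across groups were not compared. Depth limited precision through 187 to 4485 counts per member and library, and counting error is part of the replicate spread.

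The members and gene lists were chosen with earlier results of these data known. All 9 members were described; genes named from other lists were drawn from the up to 3 called genes of smallest p in each direction, or the gene of smallest p where none was called, and 2 nearest genes per member by r. Stc2, Herpud1, Krt1, Sars in its list, Mars, Eprs, Kdr and Tek were named after their values were seen.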

Additional observations from a re-analysis of the deposited data

Results flagged for a closer look

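A library far from the other 3 of its group was found in 2 of 36 combinations of member and group, where chance alone marks about 1 in 20. Both were N1-AcSpd libraries of mouse 1. Atf4 stood at 117 CPM in N1-AcSpd CD34+ cells of mouse 1, with the other mice between 101 and 103 CPM, and the gap to the nearest took up 0.845 of the range of the group. Cebpg stood at 40.3 CPM in N1-AcSpd CD34− cells of mouse 1, with the other mice between 31.4 and 32.3 CPM and a gap of 0.898 of the range. Both shares exceed Dixon's 95% critical value for 4 samples.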

How the results depend on the processing

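Over the single-gene results of the 9 members, 1412 alternative values kept their direction and their side of the threshold, 26 passed it anew, 29 no longer passed it and 0 changed sign while called. Of 9 members, the number called in untreated cells between fractions (2) was 0 with an added fold threshold or with library totals, 1 without a low-count filter, 4 with the mouse as a replicate block, 5 on the compared groups alone and 5 with the culture as a block, a setting chosen after seeing the data. In N1-AcSpd cells (2) it was 0 with the fold threshold, 4 with the mouse block, 1 on the compared groups and 5 with the culture block, which added Atf5, Trib3 and Asns in both settings. For the averaged treatment effect (0) it was 2 with the mouse block and with DESeq2. Leaving out libraries or mice gave 0 to 2, 1 to 3 and 0 to 2 members. The mouse block changed no other call of a member. Cell type calls over all genes are not given here for the compared groups alone or the culture block. The member counts in those fits therefore have no background share beside them.

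Over all genes, the fold threshold left 2913 and 3197 cell type calls and 27, 19 and 94 treatment calls (CD34−, CD34+, averaged). The treatment calls were 35, 35 and 445 without a low-count filter, 349, 152 and 1551 with the mouse block and 558, 431 and 1546 with DESeq2, 0 and 23 on the compared groups for the first and second, and DESeq2 called 71 interactions. Leaving out libraries or mice gave 4 to 157, 3 to 73, 175 to 1062 and 0 to 11 calls (interaction last), and 4506 to 6210 and 4927 to 6369 for cell type. The cause of these changes was not tested. A design of 4 mice and SEs of 0.04 to 0.24 limit what could be detected, and Chac1, Atf5 and Ddit4 rest on the fewest counts.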
